A study of Mus musculus with 8 samples.

Results

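The 36 genes described here are markers of the cells that build brain vessels, 20 of endothelial cells and 16 of mural cells. They were chosen by gene symbol for their known cell type, with earlier results of these data known. Each of the 36 matched 1 of the 38026 genes in the deposited table. Bulk RNA-seq was made of mouse cells held back by magnetic beads against CD11b, an integrin subunit found on microglia and other myeloid cells, in 8 libraries. Of these, 5 hold TAMs (tumor-associated microglia/macrophage in the labels) of C57BL/6 mice with medulloblastoma, which arises in the cerebellum, at postnatal days 68, 90, 61, 66 and 62 for replicates 1 to 5. The other 3 hold microglia from the normal cerebral cortex of C57BL/6 mice at postnatal day 60. Papain dissociation, removal of myelin and Trizol extraction were common to all libraries. The labels state neither whether a library pooled animals nor which alleles or treatments gave rise to the tumors, and p-values measure the spread between these samples. Tumor and brain region differ together between the groups and cannot be told apart. Age differs with them, since every TAM library is from a later day, 61 to 90, than the microglia, 60.

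Brain endothelial cells line the capillaries, arteries and veins and form the blood-brain barrier, sealed by tight junctions and served by transporters that pass or expel solutes. Mural cells sit outside them in a shared basement membrane: pericytes on capillaries, and smooth muscle cells, which contract, on arteries and arterioles. CD11b marks neither cell type, and some of the genes, such as Eng, Pecam1, Ly6a and Ly6c1, are known from leukocytes too. Bulk libraries do not separate fewer cells of a type from less RNA per cell.

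Promoters of 5 members are shown because smooth muscle genes and endothelial genes are known for different promoter motifs. RefSeq promoters on GRCm38.p6 matched 24 of the 36 members by symbol, 13 endothelial and 11 mural. The window searched was the 250 bases before the RefSeq start site, read 5′ to 3′ on the strand of the gene. For Myl9, Tek and Emcn the printed stretch ends before the first GENCODE M21 exon of the gene, and for Acta2 and Tie1, where a match lies in such an exon, 30 bases around each match are printed. In Acta2 (minus strand, chr19:34255438-34255467 and chr19:34255388-34255417) and Myl9 (plus strand, chr2:156775214-156775419) capitals mark the CArG box, bound by serum response factor, with at most 1 inner G or C in place of A or T.
Acta2 site 1: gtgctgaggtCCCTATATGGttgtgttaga
Acta2 site 2: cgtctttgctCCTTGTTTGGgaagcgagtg
Myl9: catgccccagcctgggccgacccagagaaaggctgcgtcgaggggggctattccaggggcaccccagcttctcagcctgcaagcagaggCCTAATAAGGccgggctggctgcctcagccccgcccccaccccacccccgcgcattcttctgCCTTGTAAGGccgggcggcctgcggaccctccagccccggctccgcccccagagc
The strict CArG box, with no inner G or C, was found once in Myl9 (CCTAATAAGG) and in 1.47% of all 32851 promoters, and the looser form in 8.59%. Among the members with a promoter, the looser form was in 2 of 11 mural ones (Acta2 and Myl9) and 4 of 13 endothelial ones (Egfl7, Eng, Kdr and Slco1a4). In Tek (plus strand, chr4:94739039-94739288), Tie1 (minus strand, chr4:118490041-118490070) and Emcn (plus strand, chr3:137340828-137341066) capitals mark CAGGAA or its complement TTCCTG, a core recognised by ETS factors, searched on both strands.
Tek: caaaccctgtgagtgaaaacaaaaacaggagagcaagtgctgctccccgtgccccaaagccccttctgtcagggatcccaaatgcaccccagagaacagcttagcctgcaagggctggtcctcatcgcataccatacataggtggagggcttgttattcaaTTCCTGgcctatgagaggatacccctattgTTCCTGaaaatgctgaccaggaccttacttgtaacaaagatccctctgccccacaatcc
Tie1: ggcttcctccctTTCCTGtctcccgtgctc
Emcn: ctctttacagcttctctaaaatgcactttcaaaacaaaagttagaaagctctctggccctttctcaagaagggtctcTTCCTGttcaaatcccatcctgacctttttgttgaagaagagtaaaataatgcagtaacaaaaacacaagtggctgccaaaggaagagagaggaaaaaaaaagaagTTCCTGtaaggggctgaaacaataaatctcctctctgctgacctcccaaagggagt
The ETS core was in a promoter of 5 of 13 endothelial members (Egfl7, Emcn, Itm2a, Tek and Tie1) and of 4 of 11 mural ones (Abcc9, Cspg4, Des and Rgs5), against 25.7% of all promoters. For each motif, members are counted by gene and the shares by promoter. A member with more than 1 promoter, such as Egfl7, thus had more windows in which to match. A SOX core, ACAATG on either strand, was in the Slco1a4 promoter alone of the members, against 10.7% of all promoters. A match describes the letters in the window and not a bound site.

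Values are TPM (transcripts per 1000000 within a library). These keep no read depth, so counting error cannot be stated. Differences are log2 fold changes (log2 change ± its standard error, SE) of TAM over microglia on log2(TPM + 1), a scale that compresses the change of low genes, tested with limma over 15262 genes with 1 TPM or more in 3 libraries. Across all tested genes the median was -0.65, and each library was therefore also rescaled by its median ratio to the geometric mean library, after which the median was 0.052. Of the calls, 12.7% were higher in TAMs on TPM and 56.3% on rescaled TPM. Of the TPM, 3 noncoding features held 25.6, 24.9, 20.8, 20.2 and 13.6% in TAM replicates 1 to 5. In microglia replicates 1 to 3 they held 15.3, 3.20 and 9.24%. With these features left out, 20 endothelial and 16 mural members were called lower in TAMs, where 7548 genes of the whole table were. With the features kept, 8610 of the 15262 tested genes were lower. The myeloid markers Itgam, Csf1r, Aif1 and Ptprc were present in every library, and Itgam, which encodes CD11b, averaged 191 ± 38.5 (SD, n = 5) in TPM among TAMs and 636 ± 16.1 (SD, n = 3) among microglia. Within the groups, microglia replicate 1 was the lowest microglia library for all 36 members and TAM replicate 5 was the highest TAM library for 31 of them, where 74.9% and 59.4% of all tested genes were. Values are therefore given per library.

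The 36 members together made up 164, 108, 53.8, 129 and 242 TPM in TAM replicates 1 to 5 and 1814, 5282 and 4172 TPM in microglia replicates 1 to 3. TAM libraries averaged 140 ± 70.0 TPM (SD, n = 5) for this sum, microglia libraries 3756 ± 1771 (SD, n = 3), a ratio of 26.9, and the groups did not overlap. All 20 endothelial and all 16 mural members passed the threshold of 0.05 on adjusted p as lower in TAMs, where 56.4% of all tested genes did, and none was higher, where 8.22% were. For 35 of the 36, every TAM library lay below every microglia library, against 49.7% of tested genes. These shares over all genes are high, so the sizes are given too. The microglia mean was 10 times the TAM mean or more for 30 of 36 members, against 6.05% of tested genes, and 50 times or more for 12 members, against 1.41%. Without TAM replicate 5 these counts were 32 (7.47% of tested genes) and 18 (2.34%), and without microglia replicate 2 they were 28 (5.31%) and 8 (1.05%). Leaving out TAM replicate 5 moved the ratio of means of 19 members by more than 1.5 times, so such ratios are also given without it, an alternative added after the values were seen. All 36 passed the filter on low values, 5 of them (Acta2, Myh11, Des, Notch3 and Kcnj8) through the microglia libraries alone, since no TAM library reached 1 TPM, so those 5 had to differ. Tek, Sox17, Abcc9, Higd1b and Ebf1 reached 1 TPM in 1 TAM library, and Slco1a4, Slco1c1, Emcn and Pdgfrb in 2. The filter asks for 3 libraries, so these too passed only with the help of the microglia libraries. Of the 12 members at 50 times or more, Acta2, Myh11, Des and Notch3 passed through the microglia libraries alone. Tek, Sox17 and Higd1b, also among the 12, passed with their help, so the filter bears on that count too. On rescaled TPM 20 endothelial and 15 mural members were called lower, where 21.2% of all genes were and 27.3% were higher, the exception being Cspg4. In the authors' deposited table, whose DESeq2 p-values were adjusted here by Benjamini-Hochberg, 34 of the 36 were lower, where 16% of 27039 genes with a p-value were, and Ly6a (adjusted p = 0.0753) and Cspg4 (adjusted p = 0.105) were not called.

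**Figure D1:**
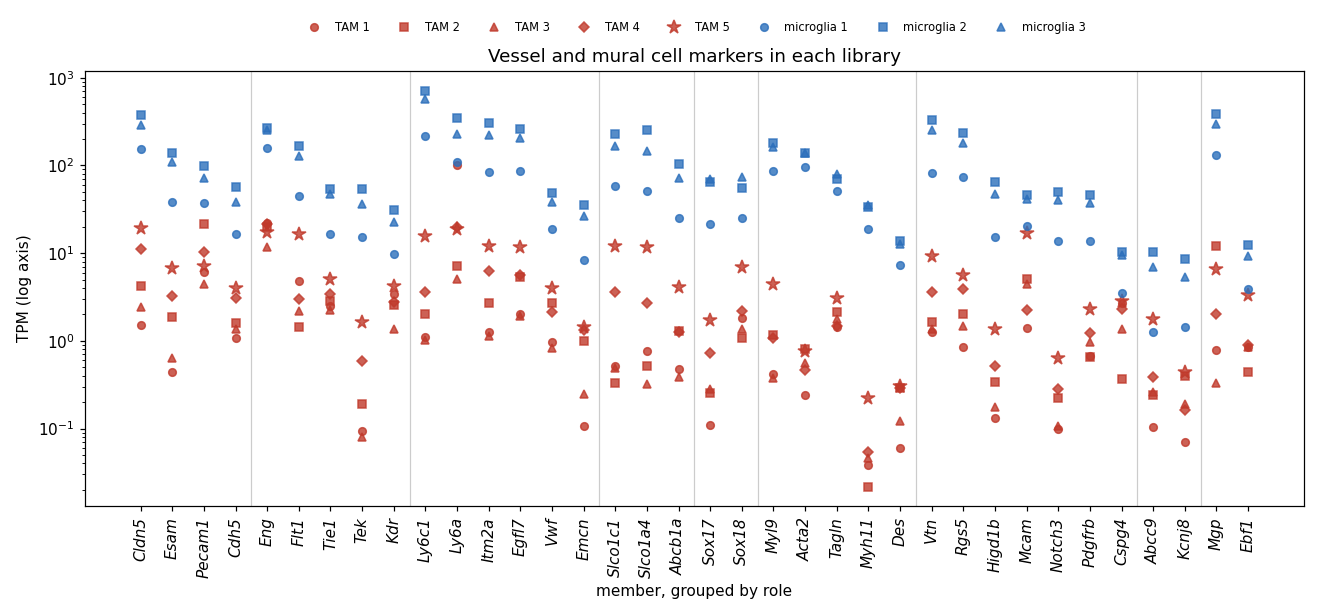
TPM (log axis) of each of the 36 members, grouped by role, in 5 TAM libraries (red) and 3 microglia libraries (blue), 1 symbol per library. Blue symbols lie above red ones for every member except Abcc9, the blue circles (microglia replicate 1) are the lowest blue symbols throughout, and the red stars (TAM replicate 5) are the highest red ones for 31 members.

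Junction genes hold endothelial cells to each other. Cldn5, the claudin of the blood-brain barrier's tight junctions (chromosome 16, 18776847 to 18778260 on mm10), was at 1.5, 4.25, 2.41, 11 and 19.4 TPM in TAM replicates 1 to 5 and at 153, 375 and 292 TPM in microglia replicates 1 to 3. Every TAM library was below every microglia library, with a spread among TAMs in which replicates 4 and 5 were the highest. Its log2 fold change was -5.32 (SE 0.68, adjusted p = 0.000408). Cdh5, which encodes the adherens junction protein VE-cadherin, was at 1.08, 1.58, 1.36, 3.08 and 3.98 TPM in TAMs and 16.5, 57.0 and 38.7 TPM in microglia (log2 change -3.50 ± 0.43 SE, adjusted p = 0.000355). Esam, an endothelial adhesion molecule, was at 0.442, 1.89, 0.644, 3.27 and 6.82 TPM in TAMs and 38.6, 137 and 109 TPM in microglia (log2 change -4.83 ± 0.62 SE, adjusted p = 0.000413). In Esam and Cdh5, as in Cldn5, TAM replicates 4 and 5 were the highest of the TAM libraries.

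Pecam1, which encodes CD31 and is also carried by leukocytes and platelets, had the smallest ratio of means of the junction genes, 7.0. It was at 6.17, 21.5, 4.49, 10.2 and 7.13 TPM in TAMs, with the highest value in replicate 2, and at 37.5, 98.7 and 71.7 TPM in microglia (log2 change -2.77 ± 0.47 SE, adjusted p = 0.00148). The ratio of Cldn5 to Pecam1 was 4.07, 3.80 and 4.08 in microglia replicates 1 to 3, nearly constant although the levels themselves differed by over 2 times. In TAM replicates 1 to 5 the same ratio was 0.243, 0.198, 0.536, 1.07 and 2.72, below the microglia libraries in all 5 and closest to them in replicate 5. This ratio and the others below were chosen after the values were seen and are given without a test.

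The receptors through which vessels sense growth signals were lower as well. Flt1 and Kdr encode the receptors VEGFR1 and VEGFR2 of vascular endothelial growth factor. Flt1 was at 4.75, 1.43, 2.17, 2.98 and 16.5 TPM in TAMs and 45.2, 169 and 129 TPM in microglia (log2 change -4.33 ± 0.67 SE, adjusted p = 0.000920), and TAM replicate 5 stood above the other 4. Kdr was at 3.45, 2.55, 1.36, 2.77 and 4.18 TPM in TAMs and 9.71, 31.2 and 22.7 TPM in microglia (log2 change -2.43 ± 0.38 SE, adjusted p = 0.00103), with no TAM library standing far from the others. Tek encodes TIE2, the angiopoietin receptor, and Tie1 its partner. Tek was at 0.0944, 0.193, 0.0809, 0.593 and 1.62 TPM in TAMs and 15.1, 53.5 and 36.6 TPM in microglia (log2 change -4.49 ± 0.44 SE, adjusted p = 0.000142), so 4 TAM libraries were under 1 TPM. Tie1 was at 2.52, 2.83, 2.22, 3.46 and 5.05 TPM in TAMs and 16.5, 54.0 and 46.8 TPM in microglia (log2 change -3.12 ± 0.38 SE, adjusted p = 0.000351).

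Eng, which encodes endoglin, a coreceptor for TGF-beta family ligands that activated macrophages also carry, had another order of TAM libraries than the other receptors. It was at 22.1, 20.1, 11.7, 21.6 and 17.4 TPM in TAMs, higher than any other endothelial member there except Ly6a in replicates 1 and 5, Pecam1 in replicate 2 and Cldn5 in replicate 5, and its TAM values did not peak in replicate 5. In microglia it was at 156, 267 and 252 TPM, with a log2 change -3.52 ± 0.24 SE, adjusted p = 3.76e-05, the lowest adjusted p among the endothelial members. Replicate 1 held 0.602 of the mean of replicates 2 and 3, where the median over the endothelial members was 0.337. Eng shares exonic bases with Fpgs on the opposite strand, and since the strandedness of the libraries is not given, reads of the 2 genes cannot be told apart there. In GENCODE M21, 9 members share exonic bases with another gene: Eng, Abcb1a, Abcc9, Des, Egfl7, Mcam, Notch3, Sox17 and Tagln. For Egfl7 some of these genes lie on the same strand.

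Among the transporters of the barrier, Slco1a4 and Slco1c1 had the highest coefficients of variation of all 36 members over TAM libraries, 152% and 147%. They lie close together on chromosome 6 (141805440 to 141856199 and 141524368 to 141570177) and encode organic anion transporters, the latter also carrying thyroxine. Slco1a4 was at 0.758, 0.519, 0.321, 2.70 and 11.8 TPM in TAMs and 51.6, 252 and 147 TPM in microglia (log2 change -5.49 ± 0.80 SE, adjusted p = 0.000730). Slco1c1 was at 0.512, 0.330, 0.495, 3.65 and 11.9 TPM in TAMs and 58.8, 229 and 168 TPM in microglia (log2 change -5.55 ± 0.81 SE, adjusted p = 0.000725). In both genes TAM replicates 4 and 5 held most of what was found in TAMs, replicate 5 being 11 and 9.53 times the mean of replicates 1 to 4. Abcb1a encodes P-glycoprotein, the drug efflux pump, and was at 0.479, 1.29, 0.391, 1.25 and 4.07 TPM in TAMs and 25.1, 104 and 72.6 TPM in microglia (log2 change -4.72 ± 0.54 SE, adjusted p = 0.000262). The microglia means were 46.6 times the TAM means for Slco1a4, 45.0 times for Slco1c1 and 44.9 times for Abcb1a. Without TAM replicate 5 these ratios were 140, 122 and 78.8, and without microglia replicate 2 that of Slco1a4 was 30.8. Abcb1b, the second mouse copy of the pump, whose longest coding transcript was 87.7% identical to that of Abcb1a over 4000 aligned bases, was at 3.51, 10.2, 6.39, 7.20 and 6.90 TPM in TAMs and 5.39, 5.21 and 7.64 TPM in microglia. The groups overlapped for this copy, which was not called on TPM (log2 change 0.11 ± 0.28 SE, adjusted p = 0.756) and was called higher in TAMs on rescaled TPM (log2 fold change 0.80, adjusted p = 0.0439).

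Surface and secreted proteins of endothelium form the next role. Ly6c1 (chromosome 15, 75044018 to 75048830) encodes a small lipid-anchored surface protein of brain endothelium and of some leukocytes. It was at 1.10, 2.01, 1.01, 3.65 and 15.8 TPM in TAMs and 216, 712 and 564 TPM in microglia (log2 change -6.81 ± 0.71 SE, adjusted p = 0.000190). Ly6c2, the copy of inflammatory monocytes, is 97.6% identical to it over 822 of 844 transcript bases, so the split of reads between the 2 is uncertain. Ly6c2 was at 77.9, 5.88, 5.64, 20.7 and 3.19 TPM in TAMs and 4.63, 8.09 and 14.7 TPM in microglia and was not called (log2 change 0.45 ± 0.90 SE, adjusted p = 0.677). The ratio of Ly6c1 to Ly6c2 was 46.8, 88.0 and 38.3 in microglia replicates 1 to 3 and 0.0141, 0.342, 0.179, 0.176 and 4.94 in TAM replicates 1 to 5. Ly6c1 was the more abundant copy in all 3 microglia libraries and in TAM replicate 5, and Ly6c2 in the other 4 TAM libraries.

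Ly6a, which encodes Sca-1, lies in the same cluster on chromosome 15 (74994877 to 74998031) and is also induced by interferon in leukocytes. It was at 102, 7.17, 5.02, 20 and 19.0 TPM in TAMs and 109, 343 and 228 TPM in microglia, so TAM replicate 1 came within 1.07 times of the lowest microglia library while the other 4 were far below. Its log2 fold change was -3.48 (SE 0.86, adjusted p = 0.00755). The summed level of 8 interferon response genes (Irf7, Isg15, Ifit1, Ifit3, Rsad2, Bst2, Usp18 and Oasl2), a list chosen after the values were seen, was 1565, 518, 595, 685 and 1041 TPM in TAM replicates 1 to 5 and 167, 174 and 171 TPM in microglia, also highest in TAM replicate 1. Ly6c2 was highest in the same library. Their part in the Ly6a value was not tested. The ratio of Ly6a to Ly6c1 was 0.503, 0.482 and 0.404 in microglia and 92.6, 3.57, 4.98, 5.50 and 1.20 in TAM replicates 1 to 5. The call of Ly6a was lost with the replicate number as a block (adjusted p = 0.0615).

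The other 4 genes of this role were lower as well. Itm2a, a membrane protein gene of brain endothelium, was at 1.25, 2.69, 1.15, 6.23 and 12.2 TPM in TAMs and 83.9, 307 and 221 TPM in microglia (log2 change -5.34 ± 0.67 SE, adjusted p = 0.000371). Egfl7, a secreted factor of growing vessels and the host of Mir126a, was at 2.01, 5.33, 1.90, 5.64 and 11.8 TPM in TAMs and 85.8, 259.5 and 204 TPM in microglia (log2 change -4.94 ± 0.54 SE, adjusted p = 0.000230). Emcn, which encodes the sialomucin endomucin of capillaries and veins, was at 0.107, 0.997, 0.245, 1.34 and 1.42 TPM in TAMs and 8.28, 35.6 and 26.2 TPM in microglia (log2 change -3.60 ± 0.47 SE, adjusted p = 0.000468). TAM replicate 5 was the highest TAM library in these 3 and in Vwf. Vwf, von Willebrand factor, which platelets and megakaryocytes also hold, was at 0.973, 2.68, 0.820, 2.16 and 3.99 TPM in TAMs and 19.0, 48.3 and 37.8 TPM in microglia (log2 change -3.53 ± 0.41 SE, adjusted p = 0.000279).

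Both transcription factors on the list belong to the SOXF group that acts in endothelial identity. Sox17, known from arteries, was at 0.110, 0.257, 0.282, 0.719 and 1.73 TPM in TAMs and 21.6, 64.2 and 70.5 TPM in microglia (log2 change -4.95 ± 0.44 SE, adjusted p = 9.65e-05), a ratio of means of 84.0 (152 without TAM replicate 5). Sox18 was at 1.80, 1.07, 1.36, 2.17 and 6.87 TPM in TAMs and 25.2, 55.3 and 73.6 TPM in microglia (log2 change -3.90 ± 0.49 SE, adjusted p = 0.000368), a ratio of 19.4 (32.1 without TAM replicate 5). For both genes TAM replicate 5 was the highest TAM library.

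Among mural members, the genes of the contractile apparatus of smooth muscle had a ratio between groups of 86.9 for their summed level, against 45.6 for the barrier transporters. Without TAM replicate 5 these were 117 and 116. Their 3 microglia libraries lay closer together than for the other mural members. Acta2, smooth muscle actin (chromosome 19, 34241090 to 34255336), was at 0.244, 0.799, 0.559, 0.468 and 0.768 TPM in TAMs and 96.8, 138 and 140.2 TPM in microglia. All 5 TAM libraries were under 1 TPM, and the lowest microglia library was 121 times the highest TAM library. Its log2 fold change was -6.32 (SE 0.19, adjusted p = 8.16e-07), the lowest adjusted p of the 36. Myh11, the smooth muscle myosin heavy chain, was at 0.0382, 0.0218, 0.0459, 0.0537 and 0.224 TPM in TAMs and 19.0, 33.7 and 35.0 TPM in microglia (log2 change -4.77 ± 0.22 SE, adjusted p = 8.47e-06). The ratio of its means was 381, and 733 without TAM replicate 5, from TAM values near the bottom of the scale. Tagln, which encodes transgelin, was at 1.44, 2.15, 1.76, 1.46 and 3.07 TPM in TAMs and 51.6, 69.1 and 79.8 TPM in microglia (log2 change -4.52 ± 0.22 SE, adjusted p = 1.05e-05). Its exons share bases with Pcsk7 on the opposite strand.

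Myl9, a regulatory light chain of myosin, was at 0.416, 1.16, 0.376, 1.09 and 4.40 TPM in TAMs and 86.0, 181 and 163 TPM in microglia (log2 change -5.99 ± 0.46 SE, adjusted p = 5.52e-05), and TAM replicate 5 was well above the other 4. Des, the intermediate filament desmin, was at 0.0606, 0.288, 0.121, 0.293 and 0.308 TPM in TAMs and 7.33, 13.6 and 12.8 TPM in microglia (log2 change -3.30 ± 0.22 SE, adjusted p = 3.45e-05). No TAM library reached 1 TPM of Des. The 5 contractile genes summed to 2.2, 4.42, 2.86, 3.37 and 8.76 TPM in TAM replicates 1 to 5 and 261, 435 and 431 TPM in microglia. They were 14.4, 8.24 and 10.3 percent of the summed TPM of all 36 members in microglia replicates 1 to 3 and 1.34, 4.08, 5.32, 2.60 and 3.62 percent in TAM replicates 1 to 5, lower in every TAM library. The sum of all 36 holds genes that leukocytes carry too, which lowers these shares. Ly6a alone was 102 of 164 TPM in TAM replicate 1. In TAM replicate 3, Eng, Ly6a and Pecam1 were at 11.7, 5.02 and 4.49 of 53.8 TPM.

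Pericyte genes varied over the microglia libraries with coefficients of variation of 38% to 59.1%, against 19.6% to 35.2% for the contractile genes. Rgs5, a regulator of G protein signaling (chromosome 1, 169655501 to 169695813), was at 0.845, 2.01, 1.46, 3.94 and 5.65 TPM in TAMs and 73.6, 234 and 178 TPM in microglia (log2 change -5.43 ± 0.50 SE, adjusted p = 0.000109). Vtn, which encodes the adhesive protein vitronectin, was at 1.27, 1.64, 1.35, 3.56 and 9.37 TPM in TAMs and 81.4, 329 and 256 TPM in microglia (log2 change -5.70 ± 0.61 SE, adjusted p = 0.000202). Higd1b, a small mitochondrial protein gene, was at 0.132, 0.337, 0.177, 0.518 and 1.35 TPM in TAMs and 15.1, 63.9 and 46.7 TPM in microglia (log2 change -4.67 ± 0.45 SE, adjusted p = 0.000136). In each of these 3, microglia replicate 2 and TAM replicate 5 were the highest of their groups.

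Pdgfrb encodes the receptor through which endothelial PDGF-B recruits pericytes. It was at 0.679, 0.651, 0.978, 1.23 and 2.29 TPM in TAMs and 13.9, 45.5 and 37.3 TPM in microglia (log2 change -3.83 ± 0.39 SE, adjusted p = 0.000176). Pdgfb, the gene of that ligand, was at 62.2, 34.7, 69.7, 94.2 and 57.4 TPM in TAMs and 173, 169 and 209 TPM in microglia (log2 change -1.58 ± 0.27 SE, adjusted p = 0.00160), and was not called on rescaled TPM (adjusted p = 0.0868). Microglia replicate 1 held 0.916 of the mean of replicates 2 and 3 for Pdgfb and 0.337 for Pdgfrb. Notch3, the receptor for signals from neighbouring endothelium, was at 0.0982, 0.222, 0.108, 0.280 and 0.633 TPM in TAMs and 13.7, 50.4 and 40.6 TPM in microglia (log2 change -4.65 ± 0.39 SE, adjusted p = 7.20e-05), under 1 TPM in all 5 TAM libraries.

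Cspg4 and Mcam had ratios of microglia mean to TAM mean of 4.10 and 6.05, the latter 11 without TAM replicate 5. Cspg4 encodes the proteoglycan NG2, which oligodendrocyte precursors also carry. It was at 2.68, 0.364, 1.36, 2.32 and 2.81 TPM in TAMs and 3.50, 10.4 and 9.52 TPM in microglia, so the highest TAM library came within 1.24 times of the lowest microglia library. Its log2 fold change was -1.58 (SE 0.43, adjusted p = 0.0119). It no longer passed on rescaled TPM (adjusted p = 0.0803), with the replicate block (0.0540) and without microglia replicate 2 (0.0561) or 3 (0.0533). Mcam, the adhesion molecule CD146 of pericytes and endothelium, was at 1.39, 5.09, 4.46, 2.26 and 16.8 TPM in TAMs and 20.6, 46.4 and 41.9 TPM in microglia (log2 change -2.71 ± 0.61 SE, adjusted p = 0.00501).

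Kcnj8 and Abcc9 encode the pore and the regulatory subunit of the potassium channel of pericytes that closes on ATP, and they are neighbours on chromosome 6 (142564837 to 142571614 and 142587862 to 142702315). Kcnj8 was at 0.0707, 0.395, 0.189, 0.161 and 0.439 TPM in TAMs and 1.44, 8.46 and 5.33 TPM in microglia (log2 change -2.08 ± 0.39 SE, adjusted p = 0.00231). Abcc9 was at 0.103, 0.241, 0.258, 0.388 and 1.77 TPM in TAMs and 1.25, 10.3 and 6.92 TPM in microglia (log2 change -2.01 ± 0.53 SE, adjusted p = 0.0102). It was the 1 member whose groups overlapped, TAM replicate 5 lying above microglia replicate 1. Kcnj8 and Abcc9 also had the lowest ratios of microglia replicate 1 to the mean of replicates 2 and 3 among the 36, 0.209 and 0.145.

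Mgp and Ebf1 close the list. Mgp encodes matrix Gla protein, an inhibitor of calcification made by arteries and fibroblasts, and was at 0.789, 11.9, 0.335, 2.03 and 6.64 TPM in TAMs, highest in replicate 2, and 132, 384 and 298 TPM in microglia (log2 change -6.06 ± 0.76 SE, adjusted p = 0.000369). Ebf1 encodes a transcription factor of pericytes and of B cells, and was at 0.861, 0.445, 0.842, 0.891 and 3.35 TPM in TAMs and 3.91, 12.5 and 9.37 TPM in microglia (log2 change -2.07 ± 0.43 SE, adjusted p = 0.00353). B lineage genes, relevant to Ebf1, summed to 608, 345, 784, 274 and 199 TPM in TAM replicates 1 to 5 and 406, 394 and 377 TPM in microglia. Over all tested genes 56.4% were lower and 8.22% higher on TPM, and 21.2% and 27.3% rescaled. Of 4 B lineage genes tested, Igkc and Iglc2 were higher in TAMs and Ighm was lower, none being lower rescaled and 3 higher. Their part in the Ebf1 values was not tested.

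**Figure D2:**
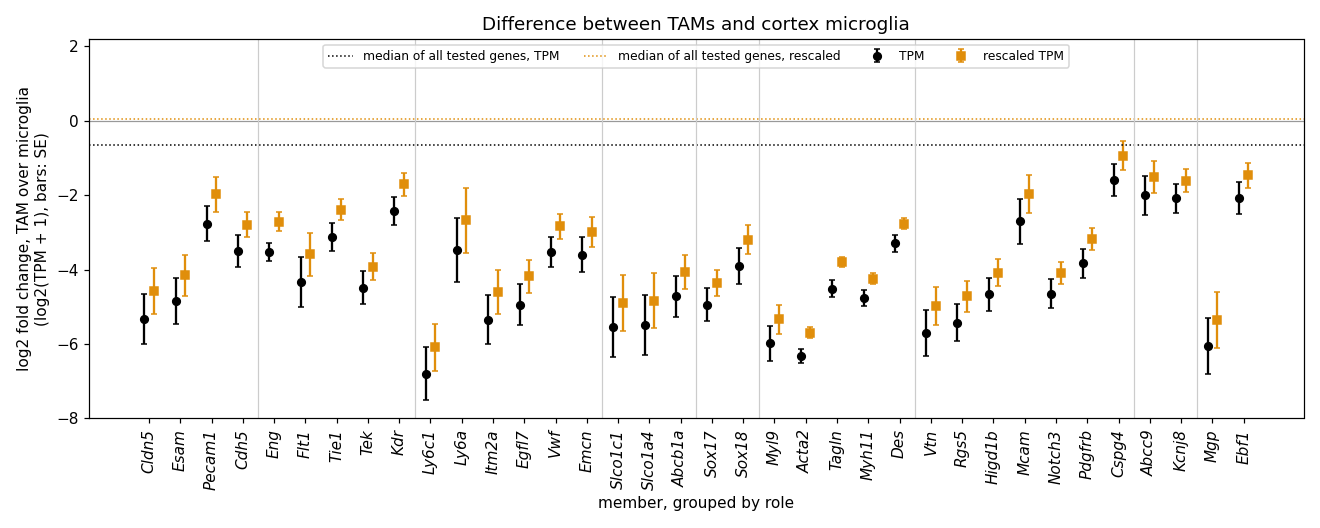
Log2 fold change of TAM over microglia (limma on log2(TPM + 1), bars are SE, 5 against 3 libraries) for each member on TPM (black) and on rescaled TPM (orange), with the median of all tested genes on each scale as a dotted line. All 36 lie below both medians, from -1.58 for Cspg4 to -6.81 for Ly6c1 on TPM and from -0.94 to -6.09 rescaled.

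The members varied between the 3 microglia libraries, which come from mice of the same age and region. Microglia replicate 1 held a median of 0.348 of the mean of replicates 2 and 3 over the 36, against 0.798 over all tested genes, and 30 of the 36 were under 0.5, against 17.3% of tested genes. The 6 at or above 0.5 were the contractile genes Acta2 (0.696), Tagln (0.694), Des (0.555), Myh11 (0.554) and Myl9 (0.5), and Eng (0.602). The ratio of Acta2 to Rgs5 was 1.31, 0.590 and 0.787 in microglia replicates 1 to 3 and 0.289, 0.397, 0.384, 0.119 and 0.136 in TAM replicates 1 to 5. The ratio of Rgs5 to Cldn5, of a pericyte to an endothelial gene, was 0.482, 0.624 and 0.609 in microglia and 0.563, 0.472, 0.606, 0.360 and 0.292 in TAMs, so the groups overlapped in that ratio. For Acta2 to Cldn5 it was 0.633, 0.368 and 0.480 and 0.163, 0.188, 0.233, 0.0428 and 0.0396, below every microglia library in all 5 TAM libraries. Summed endothelial over summed mural members came to 1.92, 2.24 and 2.07 in microglia and 13.7, 2.91, 2.74, 5.18 and 3.05 in TAMs, the highest value being that of TAM replicate 1, where Ly6a was high. These ratios, like every value of the 36, share their libraries and are descriptions.

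Astrocyte markers moved between the microglia libraries with the members. Their summed level, over 12 genes, was 143, 1014 and 688 TPM in microglia replicates 1 to 3 and 27.5, 18.9, 48.9, 79.6 and 45.6 TPM in TAM replicates 1 to 5, and replicate 1 held a median of 0.145 of the mean of replicates 2 and 3. All 12 were lowest in microglia replicate 1 of the 3, where 74.9% of all tested genes were. Of the 12, 10 were lower in TAMs, against 56.4% of all tested genes, and 9 rescaled, against 21.2%. The microglia libraries alone brought 2 of them into the test. The same shares stand beside the fibroblast counts that follow. Fibroblast markers summed to 82.3, 268 and 173 TPM in microglia and 9.30, 22.6, 8.06, 16.9 and 57.7 TPM in TAMs, all 14 lowest in microglia replicate 1 and lower in TAMs (9 of 14 rescaled), 4 of them tested through the microglia libraries alone. The 10 markers of the captured cells summed to 18123, 15915 and 15156 TPM in microglia, highest in replicate 1, and 7487, 3878, 7778, 9108 and 7538 TPM in TAMs. On TPM 6 of the 10 were lower and 1 higher in TAMs, near the 56.4% and 8.22% of all tested genes. Rescaled, 4 of the 10 were lower and 2 higher, against 21.2% and 27.3%. Their median log2 fold change was -1.62 (-0.79 rescaled), against -0.65 (0.052 rescaled) over all tested genes. The part of these lists in the levels of the members was not tested.

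Among TAMs, replicate 5 held a median of 3.82 times the mean of replicates 1 to 4 over the 36, against 1.29 over all tested genes. The 5 members highest elsewhere were Eng and Ly6a in replicate 1 and Pecam1, Acta2 and Mgp in replicate 2. Without TAM replicate 5 and microglia replicate 1 together, an analysis added after the values were seen, 20 endothelial and 16 mural members were called lower. In that fit 9836 of the 15262 tested genes were lower too. Erythroid genes were also highest in TAM replicate 5, at 4.77, 23.3, 13.5, 14.4 and 124 summed TPM in TAM replicates 1 to 5 and 72.9, 113 and 241 in microglia, as were fibroblast genes, and their part in the values of the members was not tested.

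**Figure D3:**
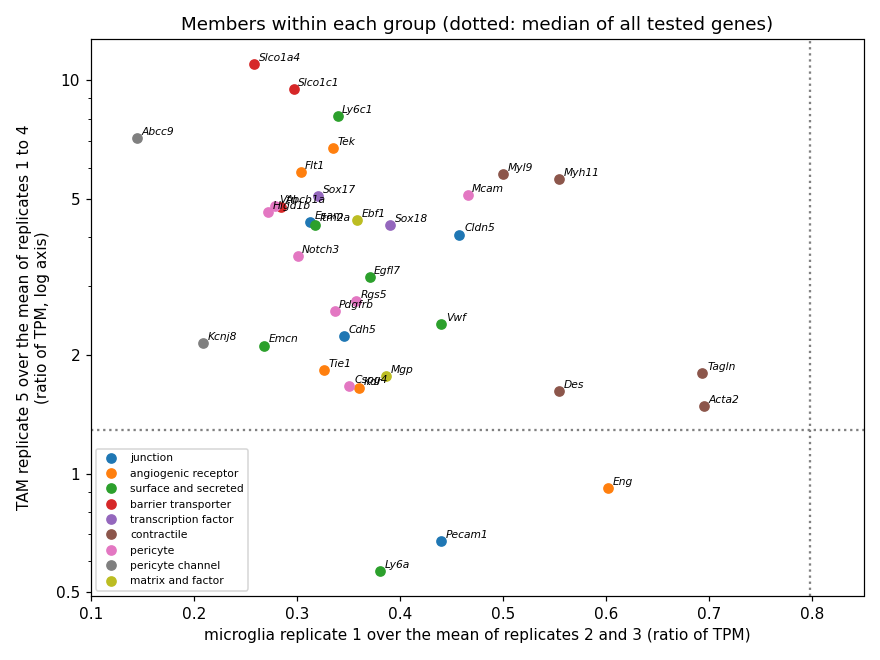
Each of the 36 members by its TPM in microglia replicate 1 over the mean of microglia replicates 2 and 3 (horizontal) and in TAM replicate 5 over the mean of TAM replicates 1 to 4 (vertical, log axis), coloured by role; dotted lines are the medians of all tested genes. The contractile genes and Eng lie at 0.5 to 0.696 on the horizontal axis, the other 30 members at 0.145 to 0.466, and Eng, Pecam1 and Ly6a lie under 1 on the vertical axis.

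Further genes of the same vessels came from lists set by known function, also with earlier results of these data known. Their counts stand beside 56.4% lower and 8.22% higher among all tested genes on TPM, and 21.2% and 27.3% rescaled, and genes tested through the microglia libraries alone had to come out lower. Only genes with no TAM library at 1 TPM are counted as such below. Genes with 1 TPM in 1 or 2 TAM libraries also needed the microglia libraries to be tested, and are not counted. Of 21 other barrier genes all were tested, with 18 lower and none higher on TPM and 17 lower and 2 higher rescaled, and a median log2 fold change of -3.01 against -0.65 over all genes. Of the 18, 2 (Slc19a3 and Cobll1) had no TAM library at 1 TPM. Ocln, the tight junction protein occludin, was at 0.5, 0.454, 0.155, 0.618 and 1.72 TPM in TAMs and 10.7, 32.7 and 26.7 TPM in microglia (log2 change -3.78 ± 0.39 SE, adjusted p = 0.000182). Slc19a3, a thiamine transporter, was at 0.0623, 0.0506, 0.00976, 0.146 and 0.569 TPM in TAMs and 4.50, 16.9 and 11.3 TPM in microglia (log2 change -3.21 ± 0.36 SE, adjusted p = 0.000252), and Cobll1 and Cgnl1 were the other 2 of lowest p. Ly6e and Abcb1b were the genes called higher on rescaled TPM. Of 27 other endothelial receptors and regulators 18 were lower and 1 higher (17 and 2 rescaled; median -2.38), and 5 of the 18 (Flt4, Clec14a, Hey2, Heyl and Unc5b) had no TAM library at 1 TPM. Ptprb, a phosphatase that acts on TIE2, was at 0.102, 0.190, 0.128, 0.637 and 1.64 TPM in TAMs and 20.8, 77.5 and 56.4 TPM in microglia (log2 change -4.99 ± 0.45 SE, adjusted p = 0.000106), and Heyl, Hey2, both Notch targets, and Clec14a were lower too. Nrp2, a coreceptor of VEGF-C and semaphorins that macrophages also carry, was the 1 higher on both scales, at 32.9, 25.2, 43.3, 61.9 and 27.4 TPM in TAMs and 13.0, 20.1 and 17.3 TPM in microglia (log2 change 1.08 ± 0.29 SE, adjusted p = 0.0115).

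Artery, vein and permeable vessel genes were tested in 9 of 14, with 7 lower and 1 higher on both scales (median -2.91). Of the 7, 6 (Ephb4, Efnb2, Bmx, Gkn3, Gja4 and Gja5) had no TAM library at 1 TPM, so the filter largely fixed that count. Gkn3, an arterial gene of the brain, was at 0, 0, 0.0420, 0.307 and 0.0595 TPM in TAMs and 45.4, 85.0 and 88.9 TPM in microglia (log2 change -6.04 ± 0.25 SE, adjusted p = 4.67e-06), listed at 0 in TAM replicates 1 and 2. Gja4 and Gja5, arterial connexins, and Efnb2, the arterial ephrin, were lower. Plvap, the diaphragm protein of leaky capillaries that barrier vessels lose, was at 1.39, 0.974, 0.842, 0.367 and 1.07 TPM in TAMs and 1.29, 1.29 and 1.08 TPM in microglia, with groups that overlapped and no call (log2 change -0.23 ± 0.21 SE, adjusted p = 0.354; rescaled 0.18, adjusted p = 0.527). The ratio of Plvap to Cldn5 was 0.00847, 0.00343 and 0.00371 in microglia and 0.926, 0.229, 0.350, 0.0335 and 0.0550 in TAM replicates 1 to 5, higher in all 5 TAM libraries. Plvap was low in both groups, so this ratio mostly restates Cldn5, at 1.5 to 19.4 TPM in TAMs and 153 to 375 TPM in microglia. Whether the vessels differed in leakiness was not tested. Vcam1, an adhesion molecule of activated endothelium that macrophages also make, was the 1 higher gene, at 67.8, 277, 124, 51.8 and 121 TPM in TAMs and 27.1, 40.1 and 35.3 TPM in microglia (log2 change 1.65 ± 0.48 SE, adjusted p = 0.0158).

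Of 17 ligands and factors of vessel growth 13 were lower and none higher on TPM, 11 lower and 1 higher rescaled (median -1.74). Of the 13, 5 (Vegfc, Angpt1, Pdgfd, Bmp4 and Sema3g) had no TAM library at 1 TPM. Sema3g, an endothelial semaphorin, was at 0.0808, 0.0905, 0.0309, 0.228 and 0.533 TPM in TAMs and 21.7, 63.2 and 50.9 TPM in microglia (log2 change -5.16 ± 0.33 SE, adjusted p = 2.74e-05). Edn1, endothelin, was at 2.58, 1.31, 2.91, 3.55 and 4.11 TPM in TAMs and 34.9, 45.3 and 53.5 TPM in microglia (log2 change -3.58 ± 0.27 SE, adjusted p = 5.11e-05), and the Notch ligand Jag2 and the lymphatic factor Vegfc fell with it. Vegfa, the ligand of Flt1 and Kdr, which myeloid cells also make, was at 32.5, 102, 29.5, 33.5 and 25.0 TPM in TAMs and 8.12, 41.3 and 29.6 TPM in microglia. It was highest in TAM replicate 2, was not called on TPM (log2 change 0.79 ± 0.58 SE, adjusted p = 0.252) and was the 1 ligand called higher on rescaled TPM (log2 fold change 1.59, adjusted p = 0.0457). Angpt2, the TIE2 ligand of sprouting vessels, was at 0.484, 0.693, 0.476, 1.48 and 1.00 TPM in TAMs and 1.44, 3.51 and 2.75 TPM in microglia, with overlapping groups (log2 change -0.95 ± 0.27 SE, adjusted p = 0.0138; not called rescaled, adjusted p = 0.133).

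Of 22 other mural genes 21 were tested and 19 were lower on both scales with none higher (median -2.54). Of the 19, 14 had no TAM library at 1 TPM, Pln, Sncg and Map3k7cl among them, so the filter largely fixed that count. Tpm2, a tropomyosin of muscle, was at 1.93, 1.73, 3.11, 2.26 and 2.88 TPM in TAMs and 31.8, 52.1 and 55.6 TPM in microglia (log2 change -3.79 ± 0.23 SE, adjusted p = 2.16e-05). Pln, phospholamban, was at 0.186, 0.324, 0.191, 0.258 and 0.377 TPM in TAMs and 5.55, 5.58 and 6.74 TPM in microglia (log2 change -2.45 ± 0.16 SE, adjusted p = 2.67e-05), and Sncg and Map3k7cl were the other 2 of lowest p. Of 13 genes of the vessel basement membrane, which both cell types lay down, 12 were lower on both scales (median -2.83), among them Sparcl1 (log2 change -5.39 ± 0.61 SE, adjusted p = 0.000251), Agrn, Nid2 and Lamb2. Sparc, which microglia also express, was the 1 not called.

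Markers of cells that share genes with the list were set beside it. Over all tested genes 56.4% were lower and 8.22% higher in TAMs on TPM, and 21.2% and 27.3% rescaled. Platelet genes, relevant to Vwf and Pecam1, summed to 50.3, 260.2, 150.1, 105 and 90.2 TPM in TAM replicates 1 to 5 and 396, 358 and 263 in microglia, most of it Pf4, which macrophages also make. Both Pf4 and Pecam1 were highest in TAM replicate 2 among TAMs. All 4 tested platelet genes (Gp9, Itga2b, Treml1 and Pf4) were lower on TPM, and Gp9 alone of them on rescaled TPM. Oligodendrocyte precursor genes, relevant to Cspg4, summed to 3.62, 1.29, 4.05, 3.48 and 10.4 TPM in TAMs and 5.24, 20.1 and 15.7 TPM in microglia, with 2 of 3 tested lower and none rescaled. Monocyte genes, relevant to Ly6c1 and Ly6a, summed to 188, 138, 45.0, 99.9 and 25.7 TPM in TAMs and 14.8, 21.6 and 25.1 TPM in microglia, with 3 of 5 tested higher. T and NK cell genes, relevant to Itm2a and Ly6a, summed to 3.40, 2.83, 2.49, 2.47 and 3.75 TPM in TAMs and 3.26, 13.4 and 12.4 TPM in microglia, with 2 of 3 tested lower. Their part in the values of the members was not tested.

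**Figure D4:**
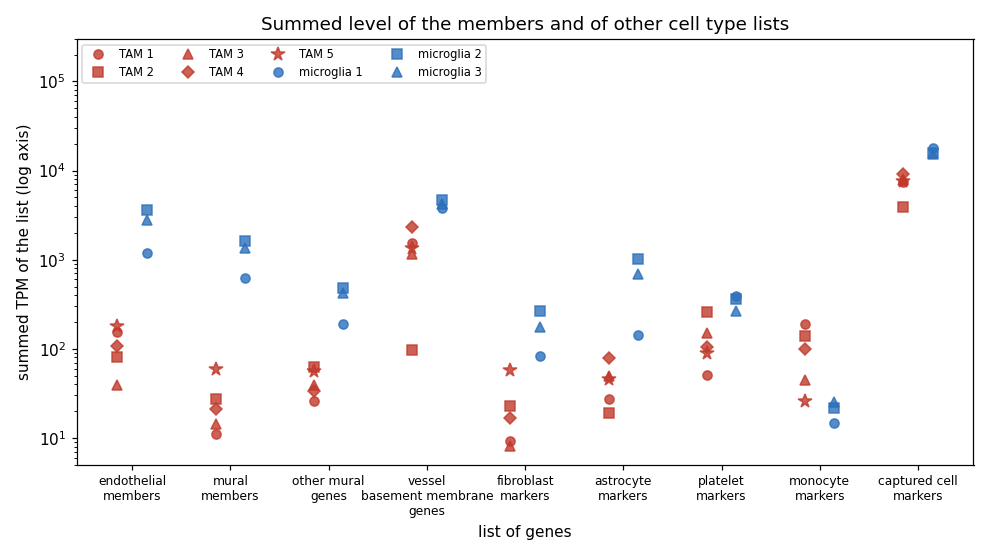
Summed TPM (log axis) of the endothelial and mural members and of other cell type lists in 5 TAM libraries (red) and 3 microglia libraries (blue), 1 symbol per library. The member sums of the groups do not overlap (39.4 to 182 against 1193 to 3653 TPM endothelial, 11.1 to 59.9 against 621 to 1629 TPM mural), and the captured cell markers are high in every library.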

How the data were processed

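RNA-seq of CD11b-captured cells was compared between 5 TAM and 3 cortex microglia libraries. The authors' deposited table, on mm10 per the submitters' processing notes, gives TPM per library, which sum to 990422 to 997832, and DESeq2 columns: a log2 fold change, an unadjusted p-value and a mean signal, the last not used here. The authors used FastQC and DESeq2, per the submitters' processing notes, which give no versions. No aligner, counting method, annotation or strandedness is named (not given in the sources used). TPM keep no read depth, so no counting error could be given. Another 3 unnamed columns of the table were not used.

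Genes with 1 TPM or more in 3 libraries (15262) were tested with limma 3.58.1 in R 4.3.3, with an intensity trend, on log2(TPM + 1), all 8 libraries being fitted without a covariate. Calls were made at a Benjamini-Hochberg adjusted p of 0.05 over all tested genes. The authors' deposited p-values were adjusted the same way over the 27039 genes that have one. Median-ratio factors for rescaling came from the 18200 genes above 0 in every library. Near copies were compared with blastn 2.17.0 on the longest coding transcripts of GENCODE M21. The fit was checked on simulated data.

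The members and the other lists were chosen with earlier results of these data known. Named genes are all 36 members, up to 4 called genes of lowest p in each direction of each other list, the near copies Ly6c2 and Abcb1b, and Plvap, Angpt2, Vegfa, Pdgfb and Itgam. Ly6e, Sparc, Ptprc, the ratios between genes, the B cell genes at low level and the interferon genes were singled out after their values were seen. Alternatives varied the scaling, filter, pseudocount (0.1), trend, age, replicate block and libraries. All microglia libraries share the same age, so the age alternative draws on age differences among TAMs alone.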

Additional observations from a re-analysis of the deposited data

Results flagged for a closer look

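For 3 of the 36 members the highest TAM library lay far from the other 4 by Dixon's test on log2(TPM + 1). All 3 values came from TAM replicate 5: Myh11 at 0.224 TPM, Abcc9 at 1.77 TPM and Ebf1 at 3.35 TPM. Chance alone gives such a value in about 1 in 20 groups, and 36 groups were examined. The 3 microglia libraries are too few for the same test.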

How the results depend on the processing

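Over 18 alternatives for each of the 36 members, 642 of 648 values kept their direction and call, 6 lost the call and 0 reversed. The lost calls were those of Ly6a and Cspg4. Endothelial members called lower numbered 20 with each library left out in turn, and mural members 15 to 16. Over the whole table, leaving out 1 library at a time gave 6461 to 9393 genes lower and 918 to 1315 higher, and leaving out TAM replicate 5 and microglia replicate 1 together gave 9836 and 1012. The whole-table counts moved with the scale: rescaled TPM gave 3241 lower and 4167 higher against 8610 and 1254, and rescaled TPM with a pseudocount of 0.1, added after the values were seen, gave 3115 and 4205. On that last scale Cspg4 had a log2 fold change of -1.29 (limma adjusted p = 0.117).

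Replicate numbers 1 to 3 occur in both groups, and numbers 4 and 5 among TAMs alone. With the number as a block, the group difference therefore comes from replicates 1 to 3 only. Same-numbered libraries had deviations from their group means that correlated at 0.0885, 0.0676 and -0.00238. Deviations of 3 libraries from their own mean are tied to each other, so these weak values cannot tell whether the numbers pair libraries. With the replicate block, 8613 genes were lower and 1103 higher, and 19 endothelial and 15 mural members were lower, the calls of Ly6a (-3.58, adjusted p = 0.0615) and Cspg4 (-1.84, adjusted p = 0.0540) being lost. TAM replicates 1 and 2 correlated best with the microglia library of their own number, and TAM replicate 3 did not. Read depth is not known, so the precision of members near 0 TPM in TAMs, such as Myh11 and Kcnj8, cannot be given.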
